A study of Homo sapiens with 16 samples.

Results

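The 10 genes described here encode proteins of neutrophil secondary and gelatinase granules, the cytosolic calprotectin subunits and receptors of late neutrophil differentiation. They are LTF, LCN2, CAMP, PGLYRP1, MMP8, MMP9, S100A8, S100A9, FPR1 and CSF3R, and they were chosen by name among 18079 gene symbols in the count table. All 10 had a row in the table, and all 10 passed the filter on low counts. The cells were wild-type HL60, a human acute promyelocytic leukaemia line, and no group carried any other genetic change. They were kept for 5 h with 50 nM SY-351, an inhibitor of the transcription kinase CDK7, or with its solvent DMSO, in 4 numbered replicates each. The labels list 2 technical repeats per replicate, 16 records in all, and the count table has 1 column for each of the 8 replicates, here called a library. Polyadenylated RNA was sequenced to ask what CDK7 does in transcription, splicing and termination. Whether the replicates were separate cultures is not stated in the labels. The p-values below therefore cover only the spread among these libraries, which may be technical.

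Neutrophil granules are filled in order as the cell matures. Promyelocytes make the primary granule proteins such as myeloperoxidase. Myelocytes then make the secondary granule proteins lactoferrin (LTF), lipocalin 2 (LCN2), cathelicidin (CAMP) and collagenase (MMP8) under transcription factors of the C/EBP family, above all C/EBP epsilon. Gelatinase (MMP9) and chemoattractant receptors such as FPR1 come later still. HL60 cells stand at the promyelocyte stage and are known for making few secondary granule proteins, also when they are driven to differentiate.

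Assigned counts totalled 103.7 to 124.2 M in the DMSO libraries and 43.3 to 77.9 M in the SY-351 libraries. Levels are given as CPM, counts scaled in the usual way to the library's own total, and 3 counts equalled 0.0241 to 0.0693 CPM. DMSO libraries 1 and 2 stood apart from all others, and the labels give no difference between them and DMSO 3 and 4. Their log CPM correlated with DMSO libraries 3 and 4 at 0.762 to 0.794 over genes, while DMSO 3 and 4 correlated with the SY-351 libraries at 0.937 to 0.954. Whether DMSO 1 and 2 were made and counted in the same way as the others, strand setting included, was not tested, and every fold that uses them takes this for granted. Each result is therefore given with all 8 libraries and without DMSO 1 and 2. Myeloperoxidase (MPO), a primary granule gene, stood at 19000 to 33600 CPM in every library. Other myeloid genes varied more between libraries, CTSG from 12.7 to 681 CPM, CD33 from 2.04 to 104 CPM and CSF1R from 0.916 to 199 CPM. Of 19 marker genes of other cell types, 12 were under 1 CPM in every library. The T cell marker CD3D, the globin HBB and the platelet gene PF4 were at or near 0. The T cell marker CD3E reached 3.49 CPM, and the megakaryocyte marker ITGA2B was at 12.8 to 33.1 CPM. The 19 markers summed to 75.2 to 78.6 CPM with SY-351, against 40.7 to 46.8 CPM in DMSO 3 and 4 and 29.9 to 30.3 CPM in DMSO 1 and 2, carried mostly by ITGA2B, PECAM1 and CD79A, and the part of this difference in the results was not tested. In bulk RNA, fewer cells of a kind and less RNA per cell cannot be told apart.

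Most of the 10 genes took a larger share of the counts with SY-351, and PGLYRP1 took a smaller one. CPM and folds are relative to the other RNA of a library. A gene called higher may thus hold a larger share of less RNA, and amounts per cell were not measured here. In plain CPM, 7 genes (LTF, LCN2, CAMP, MMP8, S100A8, S100A9 and CSF3R) had all 4 SY-351 libraries above all 4 DMSO libraries. PGLYRP1 and MMP9 had all 4 below, and FPR1 overlapped. Over all genes tested, 11.2% had all SY-351 libraries above and 21.4% had all of them below. Against DMSO 3 and 4 alone, the same 7 genes were higher and FPR1 joined PGLYRP1 and MMP9 as lower, with 16.5% of all genes above and 48.2% below. With edgeR's quasi-likelihood test on all 8 libraries (Benjamini-Hochberg adjusted p under 0.05), LTF and CSF3R rose and PGLYRP1 fell, and the other 7 genes did not pass. The background in that test was 2.91% of 15472 genes called higher and 13.6% called lower, 16.5% together. Without DMSO 1 and 2, 7 genes passed as higher and 2, PGLYRP1 and FPR1, as lower, against a background of 21.9% higher, 26.4% lower and 48.3% in either direction. When DMSO 3 and 4 were left out instead, 7 passed as higher and 2, PGLYRP1 and MMP9, as lower. These 7 were not the same, since FPR1 was among them and LCN2 was not. CAMP and MMP8, also among them, had 0 to 6 counts in DMSO 1 and 2 and passed the filter through the SY-351 libraries alone. In that fit 40.8% of all genes passed as higher, 38.4% as lower and 79.2% in either direction. The median log2 fold of the 10 genes was 1.16 with all libraries, where the median of all genes was 0, and 1.83 without DMSO 1 and 2, where it was 0.01. Scaling by total counts in place of TMM moved the last pair to 1.41 and -0.45 and left 7 of the 10 genes called higher and 2 lower, while the calls over all genes went from 3466 higher and 4172 lower to 2065 and 6848.

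**Figure D1:**
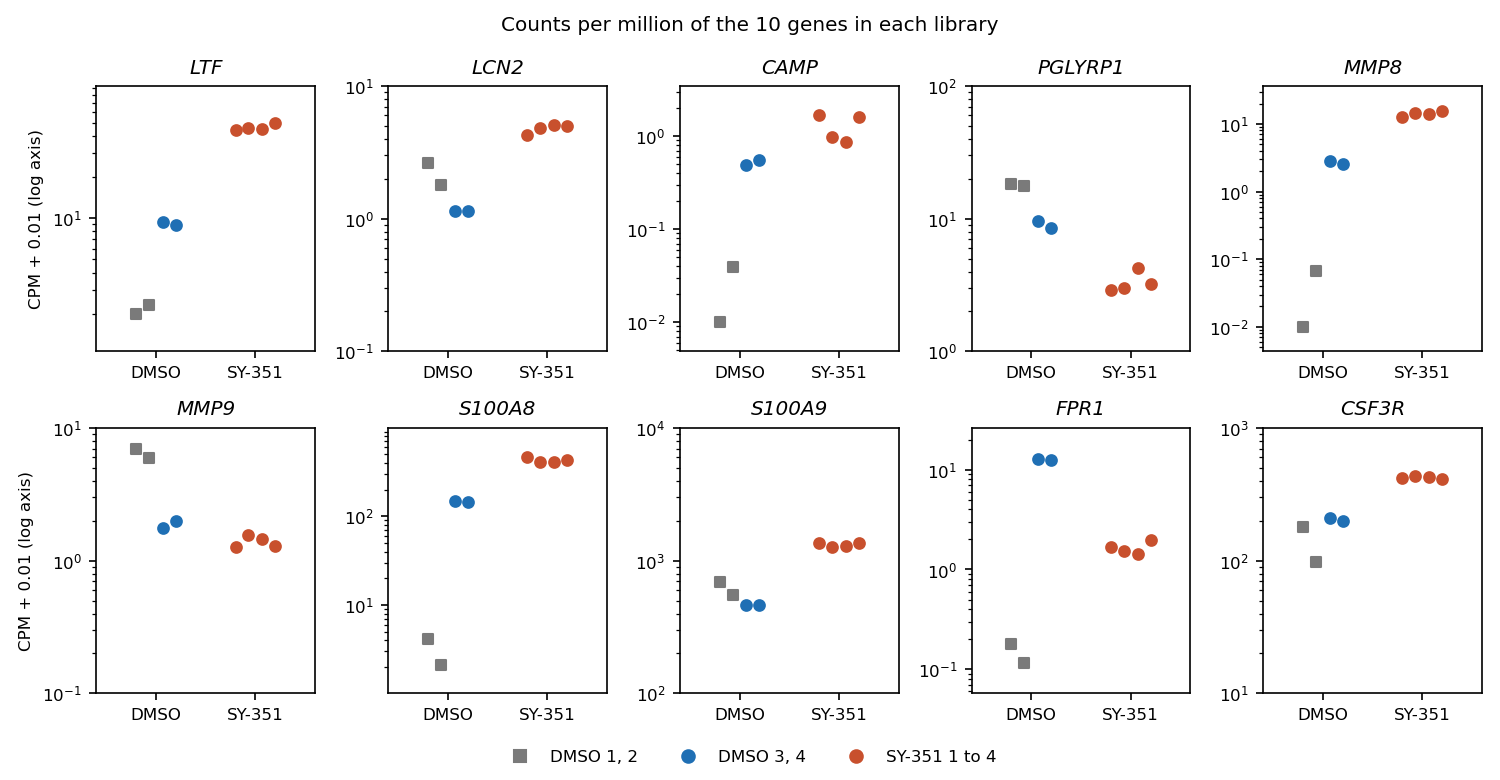
CPM (plus 0.01, log axis, a separate range for each gene) of the 10 genes in the 4 DMSO and 4 SY-351 libraries, 1 point per library. Grey squares are DMSO 1 and 2, blue points DMSO 3 and 4 and orange points SY-351. The SY-351 points lie above every DMSO point for 7 genes and below every DMSO point for PGLYRP1 and MMP9, and for FPR1 they lie between the DMSO pairs.

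The DMSO libraries themselves differed more than the SY-351 libraries in most of these genes. DMSO 3 and 4 lay close to each other, with a ratio of DMSO 3 to DMSO 4 from 0.867 (CAMP) to 1.13 (PGLYRP1). The mean of DMSO 1 and 2 was below that of DMSO 3 and 4 in 6 genes and above it in LCN2, PGLYRP1, MMP9 and S100A9. DMSO 3 and 4 were 92.5 times as high in MMP8, 92.1 times in FPR1, 47.2 times in S100A8 and 35.3 times in CAMP. Across all genes tested, DMSO 1 and 2 were both below DMSO 3 and 4 in 65.6% and both above in 23.5%. Among the 4 SY-351 libraries the SD was 2.33% of the mean for CSF3R, the smallest of the 10, and 33% for CAMP, the largest. CAMP had 52 to 130 counts in those libraries and CSF3R 17743 to 33665.

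**Figure D2:**
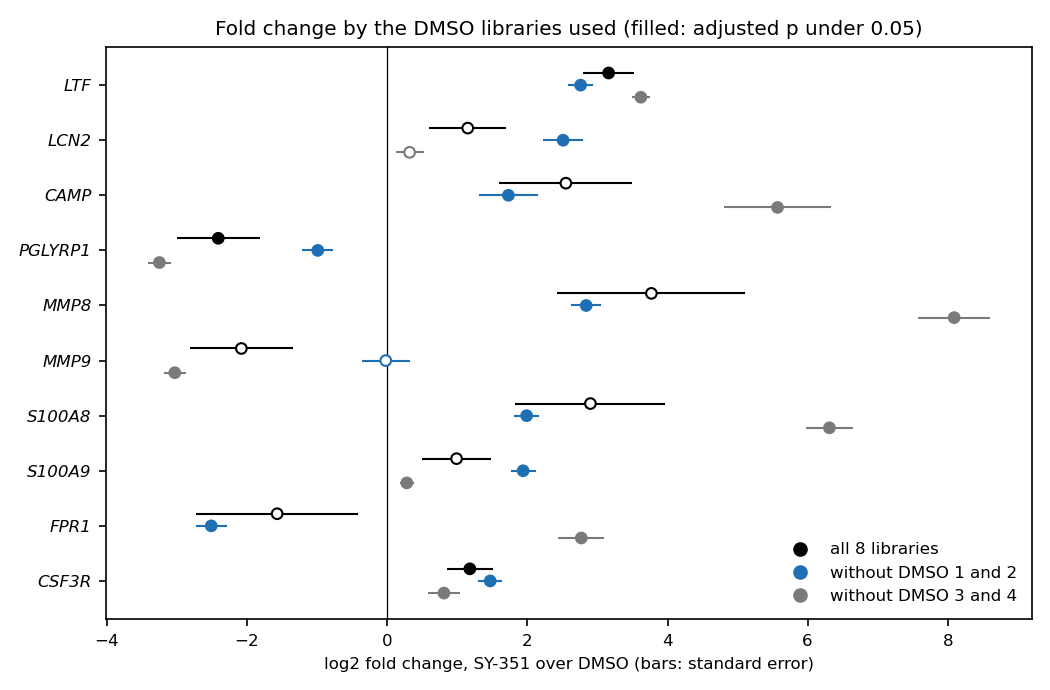
Log2 fold change of SY-351 over DMSO for each of the 10 genes with its standard error, from edgeR with all 8 libraries (black), without DMSO 1 and 2 (blue) and without DMSO 3 and 4 (grey). Filled points have an adjusted p under 0.05. FPR1 lies left of 0 at -2.51 against DMSO 3 and 4 and right of it at 2.77 against DMSO 1 and 2, and the grey values of MMP8 and CAMP rest on 0 to 6 counts in a DMSO library.

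LTF and LCN2 encode the iron-binding and siderophore-binding proteins of the secondary granule, which keep iron from bacteria. LTF was at 1.98, 2.29, 9.43 and 8.86 CPM in DMSO libraries 1 to 4 and at 43.9, 46.1, 44.6 and 49.4 CPM in SY-351 libraries 1 to 4. The groups did not overlap, and the SY-351 libraries varied by 1.13 times between the highest and the lowest. LTF rose by 3.16 ± 0.36 on the log2 scale (SE; edgeR adjusted p = 0.00315), the smallest adjusted p of the 10 genes. With DMSO 1 and 2 left out the rise was 2.76 ± 0.18 with TMM (edgeR adjusted p = 8.24e-49) and 2.33 with total count scaling. In plain CPM the SY-351 mean of LTF was 5.03 times that of DMSO 3 and 4. Folds with TMM, used here unless another scaling is named, are thus not the log2 of the plain CPM ratios. LCN2 was at 2.61, 1.78, 1.13 and 1.14 CPM with DMSO and at 4.28, 4.84, 5.1 and 5.02 CPM with SY-351. Every SY-351 library was above every DMSO library, with DMSO 1 the nearest. The log2 fold of 1.15 ± 0.55 did not pass with all 8 libraries (edgeR adjusted p = 0.193) and passed without DMSO 1 and 2 at 2.51 ± 0.28 (edgeR adjusted p = 4.54e-18). Against DMSO 1 and 2 alone it was 0.32 ± 0.2 (edgeR adjusted p = 0.165).

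CAMP and PGLYRP1 encode antibacterial proteins of the granules, the cathelicidin precursor and a peptidoglycan recognition protein, and they moved in opposite directions. CAMP was scarce, at 0, 0.0289, 0.475 and 0.548 CPM with DMSO and at 1.67, 0.978, 0.847 and 1.59 CPM with SY-351. The DMSO 1 library held 0 counts and DMSO 2 held 3, so CAMP passed the filter through DMSO 3 and 4 and the SY-351 libraries. CAMP had a log2 fold of 2.55 ± 0.95 with all libraries (edgeR adjusted p = 0.105) and of 1.73 ± 0.42 without DMSO 1 and 2 (edgeR adjusted p = 0.000133). PGLYRP1 was at 18.4, 17.7, 9.53 and 8.45 CPM with DMSO and at 2.91, 3.01, 4.25 and 3.19 CPM with SY-351. All 4 SY-351 libraries were below all DMSO libraries, and DMSO 1 and 2 were the highest. PGLYRP1 fell by 2.41 ± 0.59 on the log2 scale (edgeR adjusted p = 0.0289). Against DMSO 3 and 4 alone its log2 fold was -0.99 ± 0.22 with TMM (edgeR adjusted p = 1.89e-05) and -1.43 with total count scaling. The call with all libraries was lost when any 1 SY-351 library, DMSO 1 or DMSO 2 was left out, with adjusted p from 0.0603 to 0.105. In GENCODE, CCDC61 lies over 2165 nt of the PGLYRP1 interval on the opposite strand, and no label says if strand was kept by the kit. Reads of this pair may therefore not be separable.

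MMP8 and MMP9 encode the neutrophil collagenase and gelatinase B, 2 matrix metalloproteinases that are stored in different granules, and they did not move together. MMP8 was at 0, 0.0579, 2.82 and 2.53 CPM with DMSO and at 12.8, 14.3, 13.9 and 15.7 CPM with SY-351. DMSO 1 and 2 held 0 and 6 counts, and DMSO 3 and 4 held 350 and 296, so MMP8, too, passed the filter without DMSO 1 and 2. MMP8 had a log2 fold of 3.77 ± 1.34 with all libraries, which did not pass (edgeR adjusted p = 0.0923), and of 2.84 ± 0.21 without DMSO 1 and 2 (edgeR adjusted p = 3.06e-40). With total count scaling the latter was 2.4, and in plain CPM the ratio to DMSO 3 and 4 was 5.3. By each of these measures MMP8 had the largest rise of the 10 genes against DMSO 3 and 4. MMP9 was at 6.97, 5.96, 1.75 and 1.99 CPM with DMSO and at 1.25, 1.54, 1.45 and 1.29 CPM with SY-351. The SY-351 libraries were just under DMSO 3 and 4 and well under DMSO 1 and 2, and with TMM scaling the groups overlapped. MMP9 did not pass with all libraries (log2 fold -2.08 ± 0.73, edgeR adjusted p = 0.0904) or without DMSO 1 and 2 (-0.02 ± 0.34, edgeR adjusted p = 0.972). Leaving out DMSO 3 alone brought it past the threshold at -2.38 (edgeR adjusted p = 0.0234). The antisense gene SLC12A5-AS1 lies over 3062 nt of MMP9, with the same limit as for PGLYRP1.

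S100A8 and S100A9 encode the subunits of calprotectin, the calcium-binding and zinc-binding protein that fills the neutrophil cytosol, and S100A9 was the most abundant of the 10 mRNAs in every library. S100A9 was at 690, 548, 460 and 465 CPM with DMSO and at 1360, 1260, 1280 and 1370 CPM with SY-351. The groups did not overlap, and DMSO 1 was the highest control. The log2 fold of S100A9 was 0.99 ± 0.49 with all libraries (edgeR adjusted p = 0.202) and 1.94 ± 0.18 without DMSO 1 and 2 (edgeR adjusted p = 1.25e-24). The latter was 1.51 with total count scaling, and the ratio to DMSO 3 and 4 in plain CPM was 2.85. With total count scaling S100A9 passed with all libraries at 1.29 (edgeR adjusted p = 0.00607). S100A8 was at 4.12, 2.1, 148 and 145 CPM with DMSO and at 472, 413, 414 and 433 CPM with SY-351. DMSO 1 and 2 were far below the other controls in S100A8, although they were the higher controls in S100A9. S100A8 had a log2 fold of 2.9 ± 1.07 with all libraries (edgeR adjusted p = 0.103) and of 1.99 ± 0.18 without DMSO 1 and 2 (edgeR adjusted p = 1.05e-27). The latter was 1.56 with total count scaling, and the ratio to DMSO 3 and 4 in plain CPM was 2.95.

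The ratio of S100A9 to S100A8 counts showed the same split. DMSO 1 and 2 had ratios of 168 and 261. DMSO 3 and 4 had 3.1 and 3.2, and the SY-351 libraries had 2.89, 3.06, 3.08 and 3.16. DMSO 3 and 4 and the SY-351 libraries thus lay within 2.89 to 3.2, so that both subunits differed between these libraries by about the same factor. The S100A8 row covered 32.6 kb from a distant start, while the gene in GENCODE ends at the near start. That interval lies over S100A7A on the opposite strand and over the pseudogene S100A15A on the same strand, and reads of these neighbours may not be separable. The 10 genes together took 0.0903%, 0.0675%, 0.0856% and 0.0846% of all counts in the DMSO libraries and 0.232%, 0.218%, 0.219% and 0.229% in the SY-351 libraries. Calprotectin made up most of this share in every library.

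**Figure D3:**
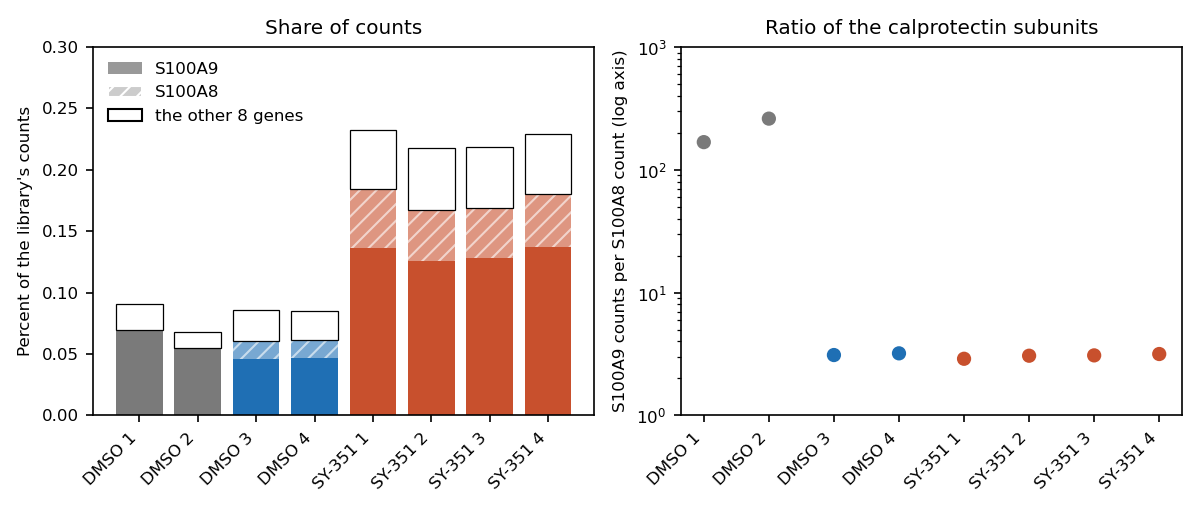
Left, percent of each library's counts that fell on S100A9 (solid), S100A8 (hatched) and the other 8 genes (white), stacked, with bars from 0. Right, S100A9 counts per S100A8 count in each library on a log axis. The share lies between 0.0675% and 0.0903% with DMSO and between 0.218% and 0.232% with SY-351, and the ratio is 168 and 261 in DMSO 1 and 2 and 2.89 to 3.2 in all other libraries.

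The bases around the start sites of the 10 genes were searched for set motifs, as a description only. Any link to the levels was not tested. RefSeq windows on GRCh38.p14 (250 bases before to 50 after each start) were held for 8 of the 10 genes, all but MMP9 and PGLYRP1. The motif TATAAA, on either strand, was found in 5 of the 8 genes, or 6 of their 13 windows, and in 11.5% of all 35116 windows. S100A8 and S100A9 both held it with its first base 29 bases before a start. For S100A8 this was a near start at 153391073, while the counted row runs from the distant start at 153422583. In these stretches of 30 bases, 5′ to 3′, the capitals mark TATAAA.
S100A8, chr1:153391085-153391114, minus strand: aagcctaaccgcTATAAAaaggagctgcct
S100A9, chr1:153357813-153357842, plus strand: tcaggagctgccTATAAAtgccgagcctgc

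C/EBP factors bind sites close to the palindrome TTGCGCAA. That palindrome was found in 0 of the 8 genes and in 0.151% of all windows. The looser form TTNNGNAA, on either strand, was found in 7 of the 8 genes, all but CAMP, and in 36.8% of all windows. The letters GAGGAA, the core bound by PU.1, were found on either strand in 6 of the 8 genes and in 27.9% of all windows, and the E-box CACGTG in 0 of the 8 and in 7.26%. Some genes have up to 3 windows, and a gene with more windows has more chances of a match. Counted by window, the 8 genes held TTNNGNAA in 11 of 13 and GAGGAA in 9 of 13. The match before the start and nearest to it is shown for 5 of the 7 genes, 4 that were higher in every SY-351 library and FPR1, with the 8 matching bases in capitals. S100A8 and S100A9 also hold the loose form and are shown above for TATAAA. A match describes letters and does not show that a factor binds there.
LTF, chr3:46464946-46464975, minus strand: aggggtgtctaTTGGGCAAcagggcggggc
LCN2, chr9:128149299-128149328, plus strand: gtccctctgtcTTGCCCAAtcctgaccagg
MMP8, chr11:102725039-102725068, minus strand: acattataaaaTTGCAAAActgtcagagtg
CSF3R, chr1:36483332-36483361, minus strand: tgagtattgggTTACACAAttccctggaac
FPR1, chr19:51752049-51752078, minus strand: aggtacatgagTTTCTAAAcaggcccagcc

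The receptor genes CSF3R and FPR1 differed in how far they depended on the controls. CSF3R encodes the receptor of granulocyte colony-stimulating factor, which drives neutrophil production, and was at 178, 97.2, 210 and 200 CPM with DMSO and at 418, 433, 425 and 410 CPM with SY-351. The groups did not overlap, and DMSO 2 was the lowest library. CSF3R rose by 1.18 ± 0.33 on the log2 scale with all libraries (edgeR adjusted p = 0.0425) and by 1.47 ± 0.17 without DMSO 1 and 2 (edgeR adjusted p = 2.28e-16). The latter was 1.04 with total count scaling, and the ratio to DMSO 3 and 4 in plain CPM was 2.05. The call with all libraries was lost without any 1 SY-351 library, DMSO 2 or DMSO 4 (adjusted p from 0.0572 to 0.13), with DESeq2 size factors (adjusted p = 0.116) and with no filter on low counts (adjusted p = 0.0506).

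FPR1 encodes the receptor for formylated bacterial peptides, which guides neutrophils to bacteria. It was at 0.168, 0.106, 12.9 and 12.4 CPM with DMSO and at 1.67, 1.53, 1.42 and 1.96 CPM with SY-351. The SY-351 libraries lay above DMSO 1 and 2 and below DMSO 3 and 4, so the direction depended on which controls were used. With all libraries FPR1 did not pass (log2 fold -1.57 ± 1.16, edgeR adjusted p = 0.385). With DMSO 1 and 2 left out it fell by 2.51 ± 0.22 (edgeR adjusted p = 2.18e-28), with DMSO 3 and 4 at 7.67 times the SY-351 mean in plain CPM. Without DMSO 3 and 4 it rose by 2.77 ± 0.33 (edgeR adjusted p = 4.4e-05). FPR1 was the 1 gene of the 10 whose fold had opposite signs against the 2 pairs of controls.

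Compared per length of mature transcript, the 10 genes spanned more than 3 orders of magnitude with SY-351. The mean level was 2280 ± 98.6 CPM per kb for S100A9, 875 ± 56.2 for S100A8, 122 ± 2.84 for CSF3R and 17.3 ± 0.928 for LTF (SD, n = 4), and the libraries of these 4 genes did not overlap. LCN2 (5.85 ± 0.451), PGLYRP1 (4.64 ± 0.858) and MMP8 (4.64 ± 0.39) followed on the same scale, and their order is not resolved, since PGLYRP1 ran from 4.05 to 5.9 CPM per kb and overlapped both. CAMP (1.71 ± 0.564), FPR1 (0.837 ± 0.12) and MMP9 (0.592 ± 0.059) were lowest and did not overlap each other. In DMSO 3 and 4 the order differed below CSF3R, with PGLYRP1 at 12.5 and FPR1 at 6.42 CPM per kb above LTF at 3.44 and LCN2 at 1.38. MMP8 (0.876), MMP9 (0.799) and CAMP (0.686) were lowest there. The rows count reads over introns as well, so reads of unspliced RNA are part of these levels. Per kb of the counted interval, introns included, the order with SY-351 differed. CSF3R (24.4 CPM per kb) was then above S100A8 (13.3), whose interval runs from the distant start, and LCN2 (1.2) and MMP8 (1.08) were above LTF (0.935).

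The authors' deposited table of local splicing variations held 6716 variations, and 5 of them were in 3 of the genes, 1 in S100A8, 2 in MMP8 and 2 in FPR1. The other 7 genes had none in the table, which says nothing about their splicing. Of the 5 in the authors' deposited table, 3, the S100A8 and both MMP8 variations, had a choice with a probability of at least 0.95 for a difference of 0.2 in inclusion, against 55.7% of all variations. At a probability of 0.9 the number was 3 again, against 64.4%. A variation is a set of competing junctions or retained introns that share an exon, and inclusion is the share of each choice from 0 to 1. The table's folder name says that outliers were left out, and no source used here says which libraries entered it.

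In S100A8 the choice was between retaining and removing intron sequence after 1 exon. Inclusion of the retained intron, listed with a span of 229 nt that matches no annotated intron, was 0.922 in control and 0.184 with SY-351 in the authors' deposited table (difference -0.757, probability 1.0). Inclusion of the junction that removes 299 nt, the length of the annotated first intron, was 0.067 in control and 0.659 with SY-351 (difference 0.601, probability 1.0, same deposited table). In GENCODE the annotated first intron lies inside a 677-nt exon of another S100A8 transcript, so that retention of the intron and use of that exon cannot be told apart. S100A8 is the gene in which DMSO 1 and 2 were at 4.12 and 2.1 CPM, and whether they were used for the control value is not known.

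In MMP8 the choice was between joining the first exon directly to the 245-nt annotated second exon and joining it first to a 67-nt exon. In the authors' deposited table the junction to the 67-nt exon had inclusions of 0.046 in control and 0.409 with SY-351 (difference 0.372, probability 0.996). The direct junction, seen from the 245-nt exon, had inclusions of 0.871 and 0.534 (difference -0.343, probability 0.963, authors' deposited table). Seen from the first exon the direct junction of MMP8 had 0.794 and 0.541, and its difference of -0.22 had a probability of 0.64 in the authors' deposited table. The junction of MMP8 that reaches the 245-nt exon over a 317-nt intron, from a nearer exon, had 0.121 and 0.417 in the authors' deposited table (difference 0.293, probability 0.886). The direct junction of MMP8 thus had the lower inclusion with SY-351 from both sides, and passed from 1 side.

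FPR1 showed a choice of the same kind that did not pass. The coding sequence of FPR1 lies in 1 exon, and a 51-nt exon can be joined in before it. In the authors' deposited table the junction of FPR1 to the 51-nt exon had inclusions of 0.173 in control and 0.494 with SY-351 (difference 0.314, probability 0.854). The direct junction had 0.812 and 0.5 (difference -0.311, probability 0.847, authors' deposited table). The second variation of FPR1, seen from the coding exon, gave 0.792 and 0.518 for the direct junction in the authors' deposited table (probability 0.712). FPR1 had 11 to 18 counts in DMSO 1 and 2, and MMP8 had 0 to 6, so these libraries hold almost no reads on either gene.

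**Figure D4:**
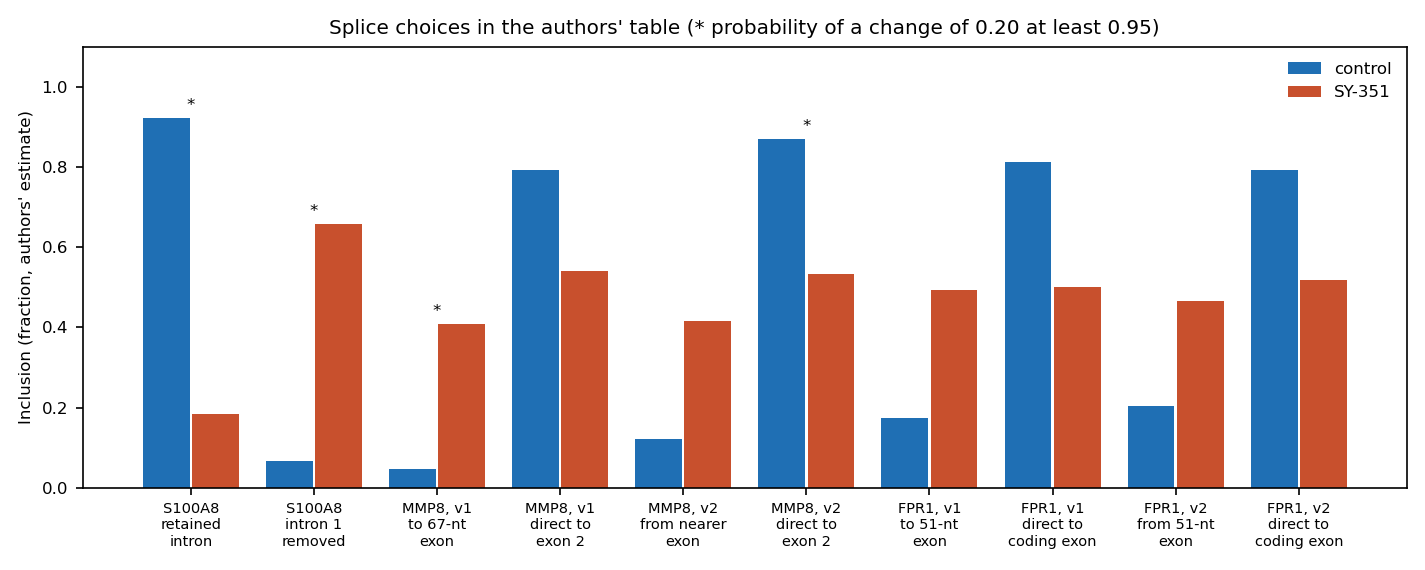
Inclusion (fraction from 0 to 1, the authors' estimates, no replicate values given) of the main choices of the 5 variations in control (blue) and SY-351 (orange), with bars from 0; v1 and v2 are the first and second variation of a gene. Asterisks mark a probability of at least 0.95 for a difference of 0.2. The retained intron of S100A8 goes from 0.922 to 0.184, and the 3 other marked choices are its spliced junction and 2 of the MMP8 junctions.

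Among other genes of neutrophil granules and late differentiation (36 listed, 33 with a row and 32 tested), 4 passed as higher and 1 as lower with all libraries, with a median log2 fold of 1.68. Over all genes 2.91% passed as higher and 13.6% as lower. The 4 that rose were BPI, a bactericidal protein that binds endotoxin, the complement receptor CR1, the chitinase-like protein CHI3L1 and the lectin FCN1. BPI rose by 2.43 ± 0.31 (edgeR adjusted p = 0.00355), from 67.3, 62.4, 189 and 176 CPM to 638 to 660 CPM. CR1 rose by 2.69 ± 0.47 (edgeR adjusted p = 0.00945), CHI3L1 by 1.79 ± 0.32 (edgeR adjusted p = 0.0099) and FCN1 by 1.62 ± 0.38 (edgeR adjusted p = 0.0252). LYZ, the lysozyme gene and the most abundant of the list, went from 380, 149, 1990 and 2190 CPM to 4390 to 4710 CPM and did not pass with all libraries (log2 fold 2.18 ± 0.66, edgeR adjusted p = 0.0566). The call of CHI3L1 was lost without SY-351 library 1 or 3, with adjusted p of 0.0505 and 0.0507, and that of FCN1 without DMSO 2 or any SY-351 library (0.0604 to 0.0856) and with DESeq2 size factors (0.0588).

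Against DMSO 3 and 4 alone, 21 of the 32 passed as higher and 4 as lower, with a median log2 fold of 1.41. With all genes the shares were 21.9% and 26.4%. The 4 that fell with TMM were chemoattractant receptors like FPR1, namely CXCR2, CXCR1, C5AR1 and FPR2, named here after their values were seen. With total count scaling 20 passed as higher and 6 as lower. The 6 included MNDA (log2 fold -0.37, edgeR adjusted p = 0.000157) and PTX3 (-1.02, edgeR adjusted p = 0.00961), also named after their values were seen. Neither is such a receptor, so the make-up of the lower genes depended on the scaling. CXCR2, a receptor of interleukin-8, was at 0.0653, 0.0772, 21.4 and 23.4 CPM with DMSO and at 1.74 to 2.36 CPM with SY-351. It fell by 3.06 ± 0.19 (edgeR adjusted p = 1e-54). FPR2, a formyl peptide receptor of the same family as FPR1, fell by 1.06 ± 0.17 (edgeR adjusted p = 3.93e-09), and CXCR1 fell by 2.02 ± 0.5 (edgeR adjusted p = 0.000197). In CXCR2, CXCR1, FPR2 and C5AR1 the SY-351 libraries overlapped the range of all 4 DMSO libraries, as in FPR1. For C5AR1 the overlap came from DMSO 2, which at 1.51 CPM lay under every SY-351 library. Folds of CXCR2, CXCR1 and FPR2 against DMSO 1 and 2 alone had the opposite sign (4, 1.18 and 5.34). C5AR1 kept its sign there, at -1.33. C5AR1, the receptor of complement C5a, fell by 1.5 ± 0.41 with all libraries (edgeR adjusted p = 0.0388) and had a log2 fold of -1.75 ± 0.23 without DMSO 1 and 2 (edgeR adjusted p = 4.75e-13). The call of C5AR1 with all libraries was lost without DMSO 1, DMSO 4 or any SY-351 library (adjusted p from 0.0675 to 0.134), with no filter (0.0515) and with total count scaling (0.108).

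Among regulators of the granulocytic programme and of the CSF3R pathway, C/EBP factor genes were lower with SY-351, while 12 genes did not pass with all libraries. Of 23 tested, 11 passed as lower and 0 as higher in edgeR with all libraries, with a median log2 fold of -2, where 13.6% of all genes passed as lower and 2.91% as higher. The lower count was 1, 2, 1 and 3 without SY-351 libraries 1 to 4 in turn. At an unadjusted p under 0.05 the counts were 14 and 1 (3492 and 1435 over all genes), DESeq2 called 15 and 1 (3806 and 1377 over all genes), and limma-voom 11 and 0 (1580 and 612). With DMSO 1 and 2 left out, 13 passed as lower and 2 as higher with a median of -1.3, against 26.4% and 21.9% of all genes. With total count scaling the counts were 18 and 1, against 6848 and 2065 of 15811 genes. The 2 higher genes were the CSF3R pathway factors STAT3 (log2 fold 0.63, edgeR adjusted p = 0.000431) and STAT5B (0.41, edgeR adjusted p = 0.0283), and with total count scaling STAT5B was at -0.02. The kinase genes JAK1 and JAK2 of that pathway, named after their values were seen, had log2 folds of 0.83 and 0.98 with all libraries and did not pass (edgeR adjusted p of 0.18 and 0.264). CEBPA, which encodes the C/EBP factor that commits cells to the granulocyte line, was at 2540, 2840, 635 and 648 CPM with DMSO and at 88.1 to 96.7 CPM with SY-351. CEBPA fell by 4.69 ± 0.91 (edgeR adjusted p = 0.0132) and had a log2 fold of -2.38 ± 0.15 without DMSO 1 and 2 (edgeR adjusted p = 1.53e-52). CEBPE, the C/EBP factor of secondary granule genes, named after its values were seen, was at 878, 825, 255 and 253 CPM with DMSO and at 68.1 to 79.3 CPM with SY-351. It fell by 3.37 ± 0.77 (edgeR adjusted p = 0.0228) and had a log2 fold of -1.35 ± 0.15 without DMSO 1 and 2 (edgeR adjusted p = 3.92e-17). The call of CEBPE with all libraries was lost without DMSO 1 or any SY-351 library (adjusted p from 0.0511 to 0.0886). In the same SY-351 libraries LTF, LCN2, CAMP and MMP8 were above every DMSO library.

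With all 8 libraries the phosphatase gene PTPN6 fell by 2 ± 0.26 (edgeR adjusted p = 0.00442), the ETS factor FLI1 fell by 1.44 ± 0.23 (edgeR adjusted p = 0.00776) and the cytokine feedback gene SOCS3 fell by 4.7 ± 0.89 (edgeR adjusted p = 0.0124). SPI1, which encodes PU.1, went from 1730, 1770, 436 and 416 CPM to 291 to 319 CPM, below every DMSO library in plain CPM. With TMM, SPI1 did not pass with all libraries (log2 fold -2.33 ± 0.81, edgeR adjusted p = 0.0855) or without DMSO 1 and 2 (-0.04 ± 0.16, edgeR adjusted p = 0.878). With total count scaling it passed as lower without DMSO 1 and 2 (-0.47, edgeR adjusted p = 9.36e-06), so this result depended on the scaling. RXRA, a partner of the retinoic acid receptors, did not pass with all libraries (-2.15 ± 0.64, edgeR adjusted p = 0.0547) and fell by 0.51 ± 0.16 without DMSO 1 and 2 (edgeR adjusted p = 0.00301). The call of CEBPA was lost without any 1 of the SY-351 libraries (adjusted p from 0.0607 to 0.0632), that of SOCS3 without SY-351 library 1, 2 or 3 (0.0565 to 0.059) and that of FLI1 without SY-351 library 1 or 3 (0.051 and 0.0511).

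Primary granule genes, the earlier set, were mostly higher against DMSO 3 and 4, while some turned with the controls used. Of 14 listed, 10 had a row, and ELANE, PRTN3, AZU1 and MS4A3 did not, so the set is incomplete. It also holds the eosinophil granule gene PRG2, so it is not a pure set of neutrophil primary granule genes. BPI, also a primary granule protein, was counted in the other granule list above. Of the 10 tested in edgeR, 1 passed as higher and 0 as lower with all libraries (median log2 fold 1.73). Without DMSO 1 and 2, 9 passed as higher and 0 as lower (median 1.28, against 1.83 for the 10 genes of the later stage). Of all genes 2.91% passed as higher and 13.6% as lower in the first fit, and 21.9% and 26.4% in the second. No primary granule gene was lower at an unadjusted p under 0.05 in either fit, or with DESeq2 or limma-voom. Against DMSO 1 and 2 alone 7 passed as higher and 2 as lower, where 40.8% and 38.4% of all genes did. The 2 were MPO (log2 fold -0.69, edgeR adjusted p = 4.08e-05) and the protease gene CTSD (-1.3, edgeR adjusted p = 4.77e-08). Against DMSO 3 and 4 with total count scaling SERPINB1 passed as lower (-0.41, edgeR adjusted p = 0.000143). Whether these medians differ was not tested. The granule membrane gene CD63 rose by 2.07 ± 0.35 with all libraries (edgeR adjusted p = 0.00828). MPO was at 27300, 31600, 19500 and 19000 CPM with DMSO and at 30000 to 33600 CPM with SY-351, and the groups overlapped. PRG2, the eosinophil major basic protein gene, had a log2 fold of 1.45 ± 0.43 (edgeR adjusted p = 0.0527) and SRGN, which encodes the granule proteoglycan serglycin, of 2.02 ± 1.32 (edgeR adjusted p = 0.329) with all libraries. With DMSO 1 and 2 left out both rose, PRG2 by 1.79 ± 0.18 (edgeR adjusted p = 2.48e-21) and SRGN by 1.06 ± 0.18 (edgeR adjusted p = 8.43e-09).

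Among 16 tested genes for receptors, inhibitors and other partners of the granule proteins, 1 passed as lower and 0 as higher in edgeR with all libraries, with a median log2 fold of 0.51, against 13.6% and 2.91% of all genes. At an unadjusted p under 0.05 the counts were 3 and 2, and DESeq2 and limma-voom each called 2 as higher. The 1 was CD14, the endotoxin co-receptor, which fell by 4.51 ± 0.83 (edgeR adjusted p = 0.0113), from 40.8, 37.8, 10.3 and 10.8 CPM to 1.3 to 1.68 CPM. That call was lost without any 1 of the SY-351 libraries (adjusted p from 0.0527 to 0.0566). Against DMSO 3 and 4 alone, 8 passed as higher and 2 as lower, where 21.9% and 26.4% of all genes did, and against DMSO 1 and 2 alone 7 and 6, where 40.8% and 38.4% did. TFRC, the transferrin receptor, stood at 11.7, 12.2, 1170 and 1180 CPM with DMSO and at 1580 to 1720 CPM with SY-351. BSG, which encodes a receptor of S100A9, and GNAI2, a G protein subunit that signals for FPR1, did not pass with all libraries (log2 folds -0.41 ± 0.68 and 0 ± 0.49, edgeR adjusted p of 0.699 and 0.999) and rose without DMSO 1 and 2 by 1.37 ± 0.18 and 0.96 ± 0.17 (edgeR adjusted p of 1.39e-13 and 1.55e-07). Against DMSO 1 and 2 alone both passed as lower, BSG at -1.33 and GNAI2 at -0.7 (edgeR adjusted p of 1.8e-07 and 0.00196), so their direction turned with the controls.

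**Figure D5:**
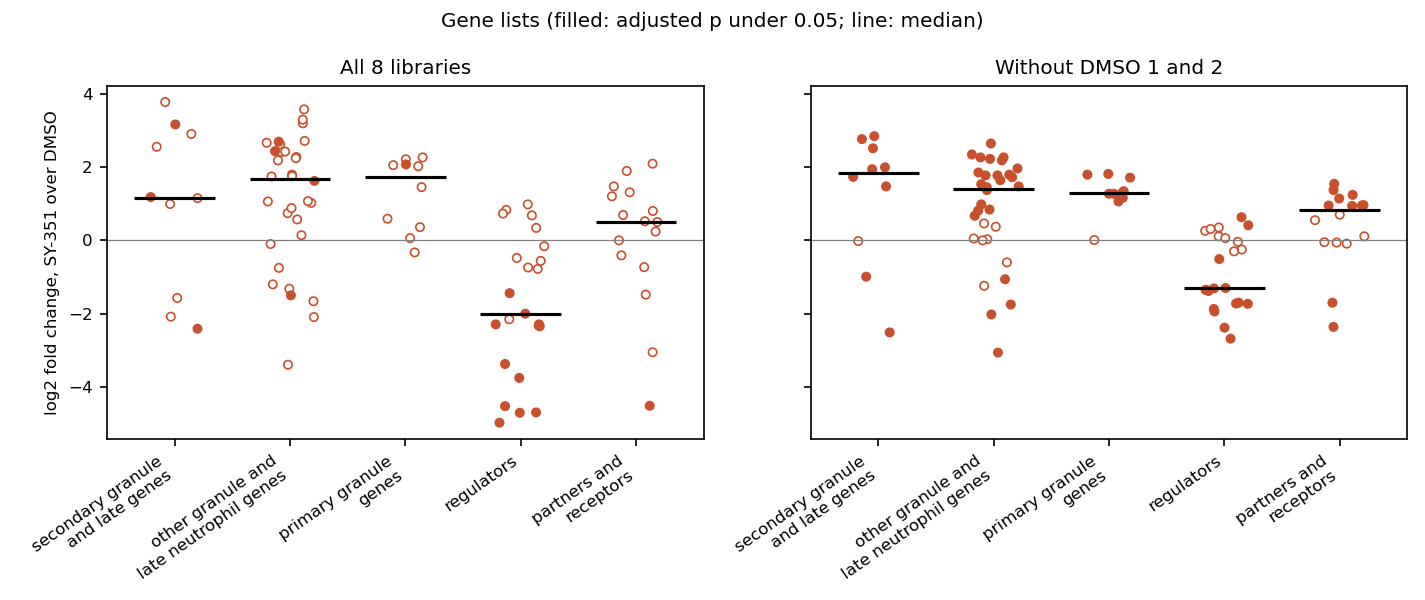
Log2 fold change of SY-351 over DMSO for each tested gene of the 10 genes described and 4 other lists, with all 8 libraries (left) and without DMSO 1 and 2 (right). Filled points have an adjusted p under 0.05 in edgeR and black lines are medians. The median of the 10 genes is 1.16 on the left and 1.83 on the right, and the regulators have the lowest medians of the 5 lists, -2 and -1.3.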

How the data were processed

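Per the labels' protocols, libraries were made from polyadenylated RNA with a TruSeq RNA kit. Whole-number counts per transcript were deposited, which the authors made with featureCounts 1.6.2 at strand setting 1, per the file headers. Each of the 18093 rows is 1 RefSeq transcript counted from start to end, introns included. The submitters' processing notes give GRCh38 as the build and name DESeq2. How the technical repeats were merged is not given in the sources used here, and 0 sample columns were left unused. The authors' deposited splicing table gives inclusion as a fraction, its difference and a probability, in the column names of MAJIQ and Voila, per the file headers. Its difference was turned to SY-351 minus control. Its coordinates are not on GRCh38, so junctions were matched by length and none of its coordinates is given.

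Identifiers were matched to symbols through RefSeq (17871 rows) and GENCODE (132 rows). 90 rows kept their identifier, and 14 were set aside for a shared symbol. The test was edgeR 4.0.16 in R 4.3.3, with TMM, filterByExpr and robust quasi-likelihood fits on group alone. It is two-sided, and a call is a Benjamini-Hochberg adjusted p under 0.05. The filter asked for about 0.11 CPM in 4 libraries. The SE of a log2 fold was taken as the fold over the root of its F statistic. CPM are not TMM-scaled, because TMM factors of DMSO 3 and 4 (1.61 and 1.21) differed while their CPM nearly matched. The code was tested on simulated data. Alternatives were DESeq2 1.42.0, limma 3.58.1 (voom), other scalings and filters, a replicate block and leaving out libraries. The 10 genes and the other lists were chosen with earlier results of these data known. Genes named are all 10 and, from each other list except the markers of other cell types, the 3 with the highest mean CPM and up to 3 called genes with the smallest adjusted p. Others are said to be named after their values were seen, or complete a count of 5 or fewer. No protein sequence was used here.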

Additional observations from a re-analysis of the deposited data

Results flagged for a closer look

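For 34 named genes in each group of 4 libraries (68 groups of values), 2 groups had a library whose gap to the nearest other, as a share of the group's range, exceeded Dixon's critical value. Chance gives about 1 in 20 such groups. TFRC was at 1580 CPM in SY-351 library 4 and at 1700 to 1720 CPM in the others of its group. GNAI2 was at 1040 CPM in DMSO library 1 and at 637 to 691 CPM in the other DMSO libraries. None of the 10 granule and late neutrophil genes had such a library in either group by this measure, which cannot see a pair of libraries that stand apart together.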

How the results depend on the processing

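Depth did not limit S100A8, S100A9 and CSF3R with SY-351, while CAMP and MMP8 had 0 to 6 counts in DMSO 1 and 2. Of the 10 genes 1 was called lower and 2 higher with all libraries. Lower calls were 2 with DESeq2, 0 with limma-voom, 2 without DMSO 1 and 2, 2 without DMSO 3 and 4, and 0 to 2 when 1 library was left out. Higher calls were 1 with no filter, 1 with DESeq2 size factors, 4 with total count scaling, 5 with DESeq2, 7 without DMSO 1 and 2, 7 without DMSO 3 and 4, and 1 to 2 when 1 library was left out. The other late neutrophil genes (1 lower, 4 higher) gave 0 lower with no filter, 4 and 14 with DESeq2, 0 and 10 with limma-voom, 4 and 21 without DMSO 1 and 2, 5 and 23 without DMSO 3 and 4, and 0 to 3 and 2 to 7 when 1 library was left out. Regulators called lower (11) were 1 to 15 when 1 library was left out, 1 to 3 where that was an SY-351 library, and 0 with the block. Over all genes (2100 lower, 450 higher) the counts were 3806 and 1377 with DESeq2, 215 higher with total count scaling, 4172 and 3466 without DMSO 1 and 2, 5996 and 6372 without DMSO 3 and 4, and 473 to 3438 and 61 to 1885 when 1 library was left out. In settings added after seeing the data, leaving out DMSO 1 and 2 gave with total count scaling 6848 and 2065 genes, 2 and 7 of the 10, and 6 and 20 late neutrophil genes, and with DESeq2 size factors 4038 and 3280 genes, 2 and 7 of the 10, and 4 and 21 late neutrophil genes. The causes were not tested.

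Same-numbered DMSO and SY-351 libraries did not deviate together (r of -0.015, -0.041, 0.006 and -0.176 over genes). This does not settle whether the numbers pair them. DMSO 1 and 2 stood apart from DMSO 3 and 4 (r of 0.762 to 0.794), while the SY-351 libraries varied little (0.987 to 0.994). A shared replicate effect could therefore go unseen. A replicate block called 0 genes lower and 0 higher, and 0 of the 10 genes and 0 of the other late neutrophil genes in either direction.

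FPR1 changed sign to 0.25 with limma-voom, 0.13 with the block and 2.77 without DMSO 3 and 4. BSG turned to 0.03 with total count scaling, 0.08 with the block, 0.04 without DMSO 1, and without DMSO 1 and 2 to 1.37, 0.95 (total count scaling) and 1.37 (DESeq2 size factors). GNAI2 and MPO turned to -0.22 and -0.17 with DESeq2 and with its size factors and to -0.7 and -0.69 without DMSO 3 and 4. Leaving out 1 library, GNAI2 ran from -0.21 to 0.43 and MPO from -0.16 to 0.4. CXCR2 turned to 0.59, 0.4 and 4, and FPR2 to 2.31, 2.14 and 5.34, with limma-voom, with the block and without DMSO 3 and 4, and CXCR1 to 1.18 in the last. FPR2 ran from -0.51 to 0.75 when 1 library was left out. LTF kept its direction under all 19 alternatives and its call under all but the block. The 3 splicing variations past 0.95 were the same number at 0.9.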
